A study of Mus musculus with 8 samples.

Results

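The windows described here are stretches of 5 kb in which the Upstate-type antibody against H3K9me3 was enriched before *Setdb1* was deleted while both lots of an Abcam antibody were not. They were chosen among windows of chromosomes 1 to 19 (mm9), each tag being placed by the midpoint of its interval, and each library was measured against its own median over all windows with a tag in any library. A window was kept where the Upstate-type library of untreated cells (day 0) held at least 3 times its median (30 tags or more) while lots 58206 and 638466 on day 0 each held less than 1.5 times theirs (at most 23 and 37 tags). This gave 22666 of 474385 windows (4.78%), or 113 Mb, which are 55.2% of the 41041 windows that reached the limit with the Upstate-type antibody. They are called Upstate-only windows below. Because the windows were chosen by the tag counts of the 3 day 0 libraries, values of those libraries are a description and not a finding, whereas the 5 later libraries took no part in the choice.

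The cells are ES cells of the JM8 line (C57BL/6N), grown without feeders, that carry 1 conditional and 1 null-targeted allele of *Setdb1* and an inducible Cre recombinase at *Rosa26*. The labels name the untreated genotype *tm1a/tm2* and the treated one *tm1c/tm2*, and the study's text names them *tm1c/tm2* and *tm1d/tm2*. Untreated cells are called day 0 here (*T* = 0 in the labels and plots), and day 2, day 4 and day 6 count from when 0.8 μM 4′OHT was added. The drug, left on for 48 h, activates Cre and deletes the conditional allele, and every group carries the *tm2* allele as well. The Upstate-type antibody, a gift of T. Jenuwein, was used at all 4 time points, and the Abcam lots on day 0 and day 6. There was 1 library per antibody and time point, 8 in all, so no comparison here has a replicate check. The libraries held 6887819, 8503927 or 12194174 tags depending on the antibody. Intervals of tag ratios cover counting error only. Intervals of shares treat windows as independent draws and cover neither the counting error of tags nor differences between libraries. Heterozygous control cells were not analysed here.

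Trimethylation of lysine 9 of histone H3 marks silent chromatin such as pericentromeric repeats, endogenous retroviruses and some imprinted regions. Setdb1 is one of the enzymes that place this mark, and in ES cells it acts largely at retroviral elements, where zinc finger proteins and Trim28 recruit it, while the Suv39h enzymes act at pericentromeric repeats. Antibodies against a histone mark are raised against a short modified peptide, and polyclonal preparations differ in which neighbouring modifications and related peptides they tolerate.

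As a set, the Upstate-only windows remained well above the median in all later libraries of the same antibody. Their median number of tags was 51 on day 0, where 30 was the lowest allowed and 265 the highest, then 59 on day 2 (range 6 to 368), 53 on day 4 (1 to 286) and 54 on day 6 (0 to 231). The library medians over all windows were 10, 9, 10 and 10 tags, so the median level, meaning tags divided by the library's median, was 5.10, 6.56, 5.30 and 5.40. Library medians are whole numbers of tags, so a step of 1 tag in the median of the day 2 library moves its levels visibly, and the tags themselves are the safer comparison. The windows held 19.8% of all tags of the 19 chromosomes on day 0, 23.04% on day 2, 20.5% on day 4 and 19.7% on day 6. Among the later libraries, which did not choose the windows, the share was highest on day 2 and lowest on day 6.

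With the Abcam lots the same windows lay near the median at both time points. Lot 58206 had a median of 17 tags on day 0 and 13 on day 6, or 1.06 and 0.812 times its median of 16. Lot 638466 had a median of 28 tags on day 0 and 26 on day 6, or 1.12 and 1.04 times its median of 25. On day 6, which the rule did not use, 96.3% of the windows stayed under 1.5 times the median with lot 638466 (91.9% of all windows did) and 97.0% with lot 58206 (85.3% of all windows). Both lots together were under this limit in 93.5% of the Upstate-only windows and in 80.3% of all windows. The rule kept both lots low on day 0, so part of these differences follows from the choice. Among the 299725 windows under 1.5 times the median with every antibody on day 0, 95.1% stayed under it on day 6 with lot 638466. With lot 58206, 90.9% of them did.

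**Figure D1:**
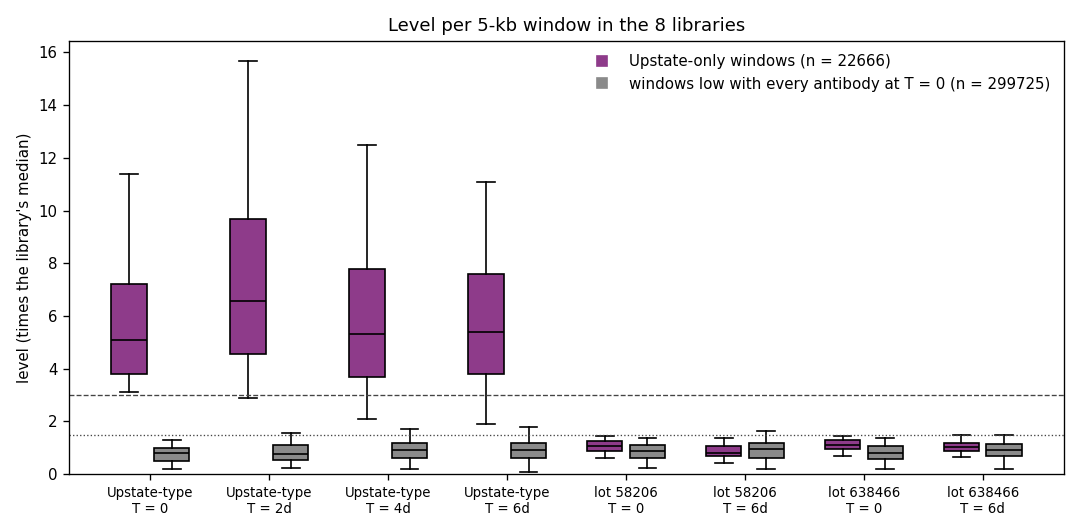
Level of each 5-kb window, as tags divided by the library's median, in the 8 libraries (boxes, 25th to 75th percentile with the median; whiskers, 5th to 95th percentile) for the 22666 Upstate-only windows and the 299725 windows under 1.5 times the median with every antibody on day 0. The dashed and dotted lines are the limits of 3 and 1.5 times, which fixed the day 0 values; the Upstate-only windows have median levels of 5.30 and 5.40 on day 4 and day 6 with the Upstate-type antibody and of 0.812 and 1.04 with the Abcam lots on day 6.

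The enrichment was measured again, in libraries that the rule did not use, for most windows. On day 2, 21348 windows (94.2%, 95% Clopper-Pearson interval 93.9 to 94.5%) were at 3 or more times the median, against 9.69% of all windows. On day 4 these were 19526 (86.1%, 85.7 to 86.6%), against 7.85%, and on day 6 19482 (86.0%, 85.5 to 86.4%), against 8.46%. The limit is lower in tags on day 2, where the library's median was 9 and not 10. With 30 tags as the limit in every library, the share on day 2 was 91.2%. All 3 later libraries reached the limit in 18071 windows (79.7%), against 6.59% of all windows, and none of them did in 768 (3.39%). Conversely, 57.8% of the 31284 windows of the genome that reached the limit in all 3 later libraries were Upstate-only windows. Windows next to each other are not independent, so these intervals are narrower than the true error.

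The windows beside the limits set a scale for these shares. The 842 windows with exactly 30 tags on day 0 had medians of 31, 28 and 29 tags on days 2, 4 and 6, and the 878 windows with 29 tags, which just missed the limit, had 30, 26 and 29. Of the 5237 windows between 2.5 and 3 times the median on day 0 with both Abcam lots low, 17.6% reached 3 times the median at all later time points. On the Abcam side, the 1223 windows with 23 tags of lot 58206 had a median of 53 tags of the Upstate-type antibody on day 6 and the 1072 excluded windows with 24 tags had 51. At the limit of lot 638466 (37 against 38 tags) these medians were 53 and 54. The limits therefore cut through continuous ranges of level. In position order, the first 3 windows with 30 tags lay on chromosome 1 from 4805001, 5095001 and 9925001 and held 25, 44 and 39 tags on day 6, and the first 3 with 29 tags lay on chromosome 1 from 14640001, 24000001 and 34035001 and held 5, 13 and 22.

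**Figure D2:**
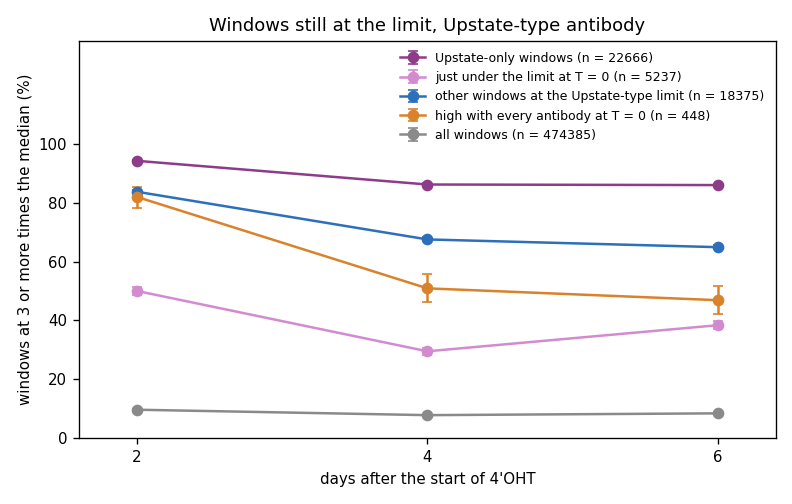
Share of windows at 3 or more times the library's median with the Upstate-type antibody on days 2, 4 and 6, for 5 sets of windows. Bars are 95% Clopper-Pearson intervals, which treat windows as independent and cover no difference between libraries. Upstate-only windows went from 94.2% to 86.0%, windows high with every antibody on day 0 from 81.9% to 46.9%. The limit is lower in tags on day 2. At 30 tags throughout, Upstate-only windows went from 91.2% to 86.0%.

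Windows that all 3 antibodies enriched before deletion declined in the same direction from day 2 to day 6, with a lower ratio of summed tags (0.642, against 0.856 in Upstate-only windows). The difference between the sets was not tested. On day 0 the Upstate-type antibody reached 3 times the median in 41041 of all windows (8.65%). Lot 58206 did so in 6103 (1.29%) and lot 638466 in 555 (0.117%). All 3 did so in 448 windows, a number capped by the 555 of lot 638466. In these 448 windows the median number of tags with the Upstate-type antibody was 84 on day 0, 55 on day 2, 31 on day 4 and 26 on day 6. Of them, 46.9% (42.2 to 51.6%) were still at the limit on day 6. In 18375 windows at the Upstate-type limit, these 448 included, 1 or both Abcam lots reached 1.5 times the median. They had medians of 48, 50, 43 and 42 tags, and 64.9% were at the limit on day 6. Their medians lay between those of the other sets on days 4 and 6 but below both on days 0 and 2. Of these 18375 windows, 6183 were left out of the Upstate-only windows by lot 58206 alone, 4998 by lot 638466 alone and 7194 by both.

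Changes between later time points were tested in each window by Fisher's exact test (two-sided) against the rest of the deposited tags. A window was called where *P*, not adjusted for the number of windows, was below 0.01 and the ratio of tags exceeded 1.5-fold. The study set the same limits for the percentage of reads on classes of repeats against day 0, so its unit and reference differ from those here. The test compares single libraries, not conditions. From day 2 to day 4, 931 Upstate-only windows fell (4.11%, against 1.11% of all windows) and 77 rose (0.340%, against 0.855%). From day 4 to day 6, 774 fell (3.41%, against 0.825%) and 478 rose (2.11%, against 0.941%). From day 2 to day 6, 2857 fell (12.6%, interval 12.2 to 13.0%, against 2.5% of all windows) and 449 rose (1.98%, against 1.99%). In the 448 windows high with every antibody, 57.8% fell over the same interval and 3.57% rose. Of the 18375 other windows at the Upstate-type limit, which include those 448, 24.1% fell and 1.74% rose. Their median on day 2 was 50 tags, against 59 in the Upstate-only windows, so falls were more frequent in them at a similar depth. A window with more tags passes such a test more readily, and Upstate-only windows hold more tags than most windows, so the share of all windows is not a depth-matched reference.

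Most of the falls left the window enriched. The 2857 windows that fell had median tags of 64 on day 0, 87 on day 2, 65 on day 4 and 46 on day 6. Of them, 1993 (69.8%) were still at 3 or more times the median on day 6 and 330 were under 1.5 times. In 2454 of the 2857 the tags on day 2 exceeded those on day 0. A call needs many tags on day 2 relative to day 6, which by itself favours such an excess. The share with an excess among all Upstate-only windows was not counted, but their median also went from 51 tags on day 0 to 59 on day 2. The 449 windows that rose had medians of 41, 36, 45 and 71 tags on days 0, 2, 4 and 6. The share of tags in unenriched windows moved with these results: the 299725 windows low with every antibody on day 0 held 34.6% of the tags on day 0, 34.1% on day 2, 40.0% on day 4 and 41.1% on day 6, or 1.21 times as many on day 6 as on day 2. With those windows as the scale in place of all deposited tags, 6819 Upstate-only windows (30.1%) fell from day 2 to day 6 and 120 (0.529%) rose. This scaling lowers the day 6 value of every window relative to day 2, so it favours calls of a fall everywhere. The share of all windows called under it was not counted, so the larger share is not a result about Upstate-only windows. The summed tags of all Upstate-only windows on day 6 were 0.856 times those on day 2 by deposited tags and 0.709 times by this scaling.

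Upstate-only windows were broad rather than point-like. They joined into 10816 runs, of which 5924 were single windows, 3940 were runs of 2 to 4 windows holding 44.9% of the windows, and 952 were runs of 5 or more windows holding 28.99%. There were 123 runs of 10 or more windows. In the later libraries the level was higher in longer runs: the median number of tags on day 6 was 42 in single windows, 55 in runs of 2 to 4 and 63 in runs of 5 or more, and the share at the limit in all 3 later libraries was 62.0%, 81.7% and 92.7%. The share that fell from day 2 to day 6 by Fisher's exact test differed little between these classes, at 12.1%, 12.6% and 13.2%, while the share that rose was 3.06%, 1.98% and 1.02%. Their median tags on day 2 were 44, 59 and 72. More tags make a call easier, so these shares do not compare the size of the changes between classes. With lot 638466 on day 6 the median was 26, 26 and 25 tags.

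The tags were spread over the whole window. At 500-bp resolution, the bin that was densest on day 2 held a median of 12.8% of the window's tags on day 4 and 12.4% on day 6, where an even spread over 10 bins would give 10%, and all 10 bins held a tag in 73.7% of the windows on day 6. Around that bin the Upstate-type antibody on day 6 averaged 5.06 times the genome mean, 4.09 times at 1 kb before it, 3.48 times at 5 kb and 2.52 times at 20 kb. Lot 638466 on day 6 was 1.11 times its mean in the densest bin and 0.988 times at 1 kb. Lot 58206 on day 6 was lower at the centre than around it, with 0.807 times its mean in the densest bin, 0.779 times at 1 kb and 1.14 times at 8 kb. The rule held this lot down on day 0 in the window itself but not in its flanks, so the comparison of centre and flanks is a description.

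At the edges of the 952 long runs the Upstate-type signal was lower outside than inside and declined further with distance. The median level on day 6 was 6.4 in the second window inside the edge, 5.7 in the first, 3.4 in the first window outside and 2.5 in the second, and it was 1.1 in the tenth window outside. Of the 18670 windows that border any run, 43.4% were themselves at the Upstate-type limit on day 0 and had been left out by an Abcam lot, so a run often ends where an Abcam lot crosses its limit and not where the Upstate-type signal stops. In these bordering windows the median on day 6 was 29 Upstate-type tags, and the Abcam lots 58206 and 638466 had 16 and 26.

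**Figure D3:**
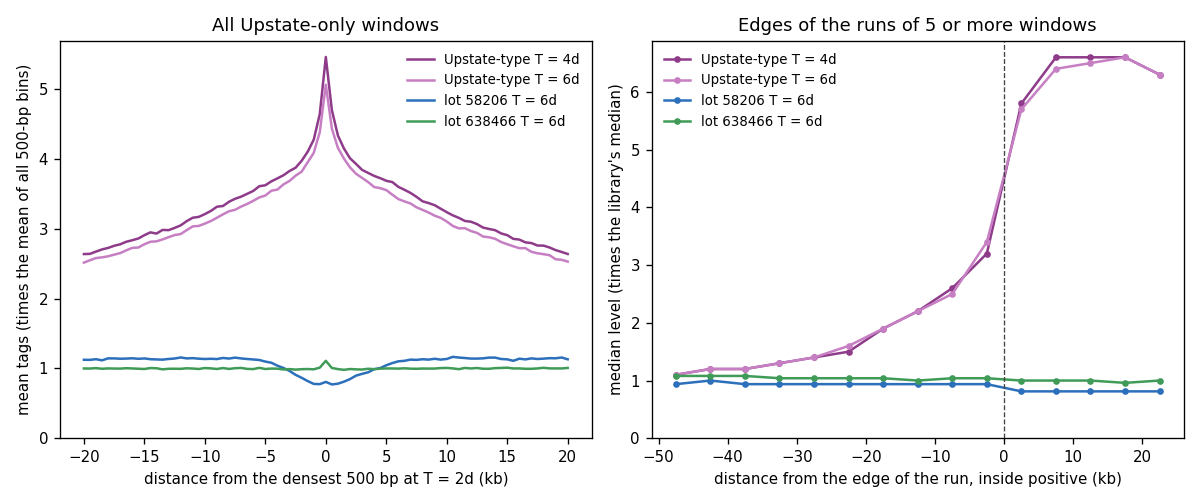
Left, mean tags per 500-bp bin, relative to the mean of all bins of the library, against the distance from the densest bin on day 2 in all 22666 Upstate-only windows; right, median level per 5-kb window against the distance from the edge of the 952 runs of 5 or more windows. The Upstate-type antibody falls from 5.06 at the centre to 2.52 at 20 kb on day 6, lot 638466 on day 6 stays between 0.981 and 1.11, and lot 58206 is lowest near the centre.

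The longest run covers 165 kb of chromosome 11 from 23220001 to 23385000 (33 windows). Upstate-type tags there numbered 1859 on day 0, 2517 on day 2, 2368 on day 4 and 2410 on day 6. With lot 58206 it held 555 and 344 tags on day 0 and day 6, and with lot 638466 759 and 826. All 33 windows were at the limit in every later library, and none was called lower or higher between day 2 and day 6 by Fisher's exact test. The ratio of summed tags on day 6 to day 2 was 0.957 (exact 95% interval 0.905 to 1.01).

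The next 4 runs were 85 kb long (17 windows each). On chromosome 9 from 95860001 to 95945000, tags were 981, 1171, 1117 and 1101 over the 4 time points, and 0 of 17 windows were called lower from day 2 to day 6. A second run on chromosome 9, from 119145001 to 119230000, held 1193, 1479, 1164 and 1019 tags, and 2 windows were called lower. The run on chromosome 10 from 62710001 to 62795000 held 1404, 1957, 1559 and 1224 tags. Of its 17 windows 11 fell, with a ratio of 0.625 (0.582 to 0.672), although all 17 were still at the limit on day 6. On chromosome 12 from 66180001 to 66265000 there were 1134, 1331, 1223 and 982 tags, and 2 windows fell. Its ratio was 0.738 (0.679 to 0.802). The ratios of the runs on chromosome 9 were 0.940 (0.865 to 1.02) and 0.689 (0.636 to 0.747). The last interval overlaps that of the run on chromosome 10. With lot 638466 these 4 runs held 427, 518, 476 and 434 tags on day 0 and 412, 456, 461 and 412 on day 6.

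The 5 windows with the highest mean level at the later time points reached 306 to 368 tags on day 2. The first, on chromosome 7 from 118220001 to 118225000, held 241, 368, 259 and 230 tags over the 4 time points, 20 and 32 with lot 58206, and 21 and 32 with lot 638466. The Upstate-type signal there was over 20 times the median at each time point while neither lot exceeded 2 times its own. On chromosome 4 from 126705001 to 126710000 the tags were 206, 313, 286 and 231, the smallest decline of the 5 from day 2 to day 6 (ratio 0.738, short of the 1.5-fold requirement). The others lay on chromosome 1 from 59755001 to 59760000 (180 tags on day 6), chromosome 1 from 155315001 to 155320000 (185 tags) and chromosome 11 from 33055001 to 33060000 (180 tags), and these and the first fell from day 2 to day 6 by Fisher's exact test, with *P* between 3.94e-10 and 5.26e-08. All 5 remained at 18 or more times the median on day 6.

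A small group of windows lost the signal. On day 6, 591 Upstate-only windows (2.61%) were under 1.5 times the median, as 74.5% of all windows were, and their median tags were 34 on day 0, 26 on day 2, 17 on day 4 and 10 on day 6. They had started close to the limit of 30 tags. Their median with lot 58206 was 19 tags on day 0 and 14 on day 6, and with lot 638466 it was 29 and 23. In all Upstate-only windows these medians were 17 and 13, and 28 and 26. The window with the largest fall from day 2 to day 6 with day 4 in between lay on chromosome 1 from 48730001 to 48735000, where tags were 37 on day 0, 32 on day 2, 11 on day 4 and 0 on day 6 (Fisher's exact test, *P* = 4.66e-10). With the count of 0 set to a floor of 3 tags, it was at least 10.7-fold lower, and with counting error in both libraries the exact 95% interval of the ratio reached up to 0.122. The largest falls were picked by these same counts, so their *P* values and intervals do not allow for the choice. On chromosome 16 from 58055001 to 58060000 tags were 32, 29, 1 and 0 (at least 9.67-fold lower than on day 2 by the same floor, ratio interval up to 0.136, Fisher's exact test, *P* = 3.73e-09). In this window lot 58206 held 21 tags on day 0 and 6 on day 6, and lot 638466 held 32 and 7. In the window on chromosome 1 they held 20 and 9, and 23 and 13. The next falls lay on chromosome 7 from 105300001 to 105305000 (29 to 1 tags, ratio 0.0345, interval 0.000844 to 0.208), chromosome 9 from 92540001 to 92545000 (29 to 1 tags) and chromosome 4 from 126995001 to 127000000 (36 to 2 tags, ratio 0.0556, 0.00648 to 0.216). From day 0 to day 6, lot 58206 went from 21 to 15, 17 to 2 and 21 to 16 tags in these windows. Lot 638466 went from 37 to 20, 22 to 15 and 28 to 25.

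The windows with the largest rises had few tags on day 2. They were picked by their counts on day 2 and day 6, so *P* values and intervals do not allow for the choice. On chromosome 4 from 45445001 to 45450000 tags were 31, 13, 30 and 56 over the time course (ratio of day 6 to day 2 4.31, interval 2.33 to 8.59, Fisher's exact test, *P* = 1.68e-07). On chromosome 10 from 12430001 to 12435000 they were 32, 19, 31 and 81 (ratio 4.26, Fisher's exact test, *P* = 2.70e-10). Chromosome 4 from 106715001 to 106720000 held 33, 25, 44 and 92 tags, chromosome 19 from 9090001 to 9095000 held 30, 22, 29 and 80, and chromosome 9 from 14355001 to 14360000 held 43, 19, 19 and 69. In each of the 5 the value on day 6 was above that on day 0. Lot 638466 held 23 to 35 tags in them on day 6, against 26 to 35 on day 0.

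**Figure D4:**
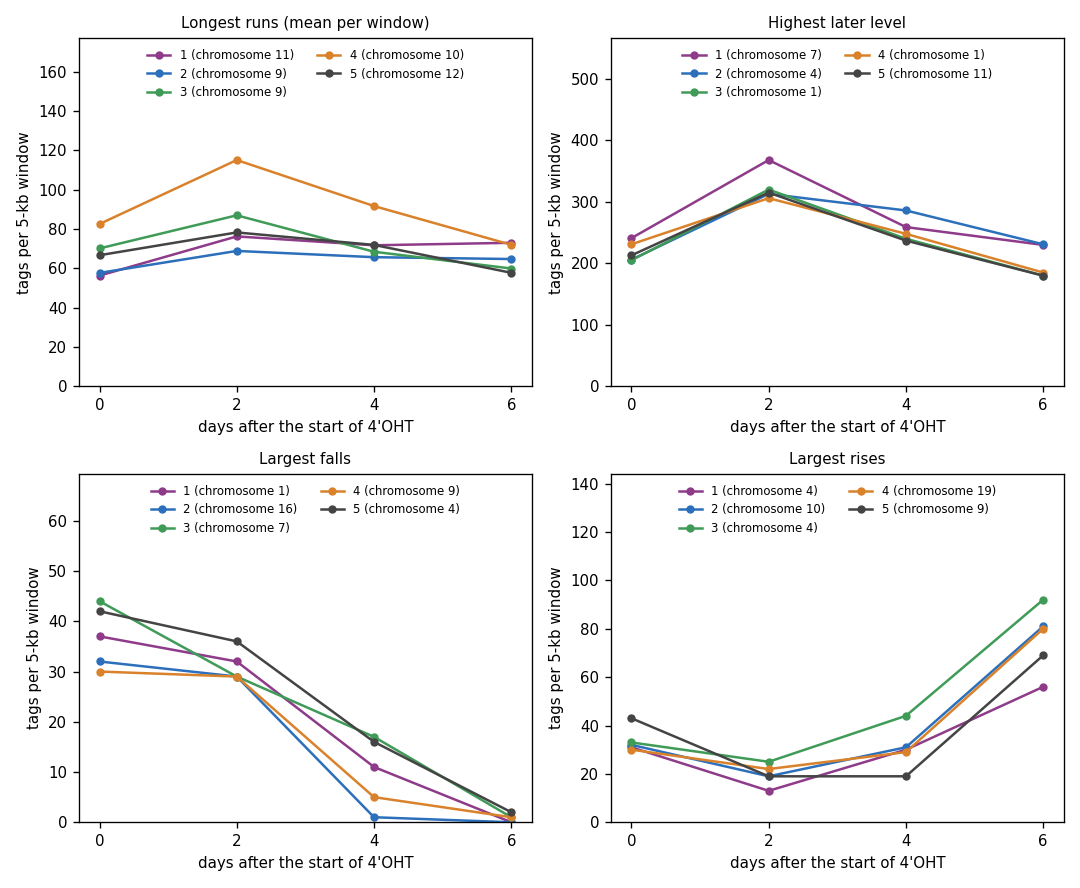
Tags per 5-kb window with the Upstate-type antibody over the time course for the 5 longest runs (mean per window), the 5 windows with the highest later level, and those with the 5 largest falls and rises from day 2 to day 6; numbers in the legends are ranks. The falls end at 0 to 2 tags and the rises at 56 to 92, and the windows of highest level stay at 180 or more.

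Part of the calls were shared by neighbours. Of the 2857 windows that fell from day 2 to day 6, 2143 had an Upstate-only window beside them, and 1077 of these (50.3%) had one that fell too. Of the 449 that rose, 268 had such a neighbour, and in 70 of these (26.1%) it rose too, and neither share was set against one for all windows. There were 133 stretches of 3 or more neighbouring falling windows and 7 such stretches of rising ones. The longest, picked after their values were seen, were 2 stretches of 7 falling windows. On chromosome 1 from 167800001 to 167835000 tags went from 684 on day 2 to 397 on day 6, and all 7 windows were still at the limit. On chromosome 2 from 71135001 to 71170000 they went from 446 through 319 on day 4 to 133 (ratio 0.298, interval 0.244 to 0.363), while lot 58206 held 124 and 126 tags on day 0 and day 6 and lot 638466 held 204 and 169. The longest rising stretch, of 5 windows, lay on chromosome 12 from 70925001 to 70950000 and went from 224 to 400 tags.

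Few windows became enriched with an Abcam lot by day 6. With lot 58206, 17 of the 22666 (0.0750%, interval 0.0437 to 0.120%) reached 3 times the median, against 2.43% of all windows, and 3.01% reached 1.5 times, against 14.7% of all windows. With lot 638466, 0 windows reached 3 times the median, which allows a share of up to 0.0163% by the upper bound of the interval, against 0.0232% of all windows, and 3.73% reached 1.5 times, against 8.1%. The rule kept both lots low on day 0, so shares below those of all windows follow in part from the choice. The same Abcam limits applied to the 299725 windows low with every antibody on day 0. Of those, 0.0287% (0.0230 to 0.0354%) reached 3 times the median with lot 58206 on day 6, a lower share than in Upstate-only windows. With lot 638466, 0 of them did. The limit of 1.5 times was reached in 9.10% of them with lot 58206 and 4.91% with lot 638466. Their median level on day 6 was 0.938 with lot 58206 and 0.920 with lot 638466, against 0.812 and 1.04 in the Upstate-only windows. Lot 58206 was thus the lower and lot 638466 the higher of the pair in Upstate-only windows, although both lots had been higher there than in this reference on day 0 (1.06 against 0.875 and 1.12 against 0.800). Less than 0.5 times the median of lot 58206 was found in 6.76% of Upstate-only windows (9.57% of all windows), and of lot 638466 in 1.31% (9.05% of all windows).

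The window highest with lot 58206 on day 6 lay on chromosome 16 from 36110001 to 36115000. It went from 23 to 87 tags with this lot, from 35 to 17 with lot 638466, and held 31, 18, 36 and 17 tags of the Upstate-type antibody. The following 4, on chromosome 14 from 57020001, chromosome 6 from 29110001, chromosome 2 from 84550001 and chromosome 4 from 111835001, held 70, 69, 66 and 61 tags of lot 58206 on day 6 and 20, 21, 33 and 20 of lot 638466. The rise was therefore not shared by lot 638466 in 4 of these 5 windows, where its tags were lower on day 6 than on day 0. With lot 638466 the highest window lay on chromosome 15 from 65620001 to 65625000, with 16 tags on day 0 and 56 on day 6, where lot 58206 held 20 and 17. The other 4 held 52 to 55 tags on day 6. One of them, on chromosome 18 from 67470001 to 67475000, held 105, 132, 82 and 39 tags of the Upstate-type antibody over the time course (Fisher's exact test for day 6 against day 2, *P* = 5.11e-13). The remaining 3 lay on chromosome 8 from 81185001, chromosome 14 from 123290001 and chromosome 15 from 61990001.

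Among themselves the Upstate-only windows kept their order of level over the later time points. Across the 22666 windows, Pearson's r of log2(tags + 1) was 0.889 between day 2 and day 4, 0.852 between day 4 and day 6 and 0.771 between day 2 and day 6 with the Upstate-type antibody. It was 0.275 between both Abcam lots on day 6, and −0.0203 and 0.102 between the Upstate-type antibody on day 6 and lots 58206 and 638466. The rule kept both lots low on day 0, which narrows their range. On day 6 the 5th to 95th percentile was 7 to 22 tags with lot 58206 and 16 to 37 with lot 638466. With the Upstate-type antibody it was 19 to 111. Low values of r with an Abcam lot therefore follow in part from the choice. These are correlations across windows, which share their base composition and mappable length and are not replicates.

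The windows were unevenly placed. By chromosome they made up between 2.69% (chromosome 8) and 7.49% (chromosome 11) of the windows, with 6.08% on chromosome 19 and 3.57% on chromosome 3. Of 2426 blocks of 1 Mb, 750 held none, and the 243 fullest blocks held 36.9% of all Upstate-only windows. The fullest, on chromosome 11 from 86000001 to 87000000, had 74 of its 200 windows among them, followed by chromosome 16 from 17000001 to 18000000 with 64 and chromosome 2 from 119000001 to 120000000 with 59. Over the 19 chromosomes, the share of Upstate-only windows was higher where GRCm38 has more protein-coding genes per Mb (Pearson's r = 0.650, Spearman's rho = 0.623) and where its GC content is higher (r = 0.697, rho = 0.707). The share of all windows at the Upstate-type limit followed both features more closely (r = 0.755 and 0.903), so the relation is not particular to Upstate-only windows. Without chromosome 8 the values of r for Upstate-only windows were 0.715 and 0.860 over 18 chromosomes. Gene density and GC content vary together between chromosomes, and their parts in the placement were not tested.

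Chromosome 8 stood apart in the total level of every library. The median over all its windows was 1.10 times the library's median for the Upstate-type antibody on day 0, 1.25 times for lot 58206 and 1.20 times for lot 638466, and it was 1.11 to 1.24 times in the 5 later libraries. On this chromosome 26.3% of the windows at the Upstate-type limit counted as Upstate-only, and on the other chromosomes 52.7 to 61.2% did. With the median of each library taken within chromosome 8, 1312 of its windows met the rule in place of 668, and they were 58.1% of those at the Upstate-type limit. This rescaled the Upstate-type antibody and both lots together, so their parts in the low number on chromosome 8 were not tested. Chromosome copy number was not measured here and cannot be told apart from these levels. The windows chosen there otherwise behaved like the rest, with 79.2% at the limit in all later libraries.

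**Figure D5:**
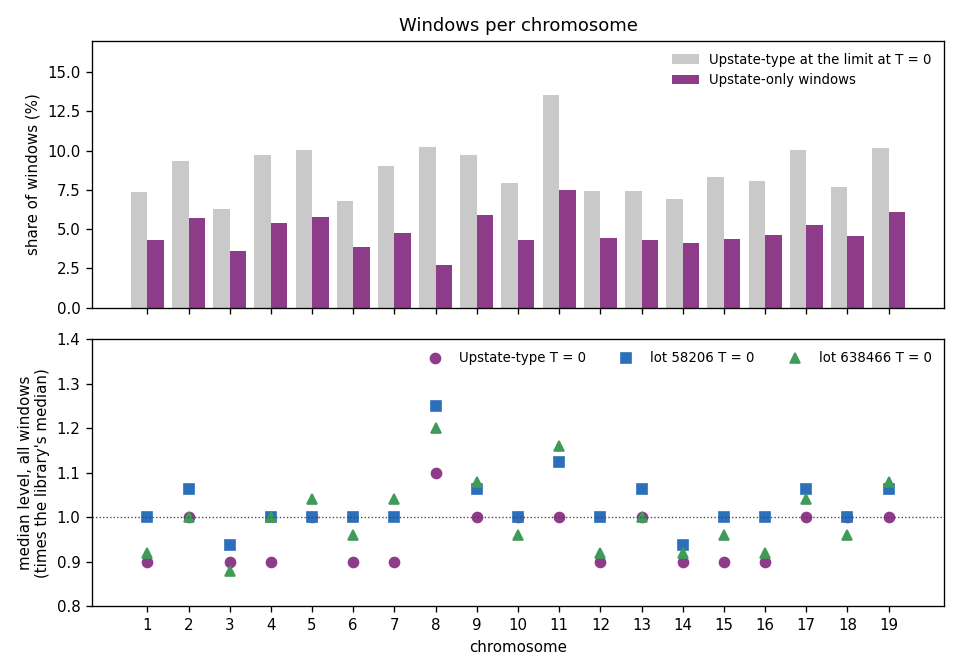
Top, share of 5-kb windows of each chromosome at 3 or more times the median with the Upstate-type antibody on day 0 (grey) and share that are Upstate-only windows (purple); bottom, median level of all windows of the chromosome in the 3 libraries on day 0, on an axis that starts at 0.8. Chromosome 8 has the smallest share of Upstate-only windows (2.69%) and median levels of 1.10, 1.25 and 1.20, and chromosome 11 the largest share (7.49%).

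Gene names and DNA sequence are not given for these windows because the files use mm9 and the reference used here is GRCm38, from which only features of whole chromosomes were taken.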

How the data were processed

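H3K9me3 ChIP-seq libraries of *Setdb1* mutant ES cells were grouped by the antibody and time point in the labels, 1 library each. The deposited intervals are in mm9 (build per the labels), carry neither strand nor score and are all 300 bp long. The authors made them from uniquely placed tags with no more than 1 mismatch, lengthened to the fragment size, after evening out tag numbers between the libraries of an antibody. How tags were picked and the aligner are not given in the sources used here. Within a library no start was repeated, and pairs of libraries shared 0.378% to 1.12% of their starts. No column of values was set aside.

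Tags were counted by interval midpoint in 5-kb windows in Python 3.11.15 (numpy 2.4.6). The tests used scipy 1.17.1, tables pandas 2.3.3 and figures matplotlib 3.10.9. Fisher's exact test was run over all 474385 windows. On simulated tags for the comparison of day 6 with day 2, 90 of 100 Upstate-only windows lowered 3-fold and 100 of 100 raised 3-fold were called, and 0.614% of unchanged ones. The simulated tags had counting error only (Poisson), around the mean of both libraries. They held no differences between cultures or libraries, so the 0.614% is not an error rate for the real comparison. Named regions were the 5 longest runs, the 5 windows of highest later level, largest fall, largest rise (called, with day 4 in between) and highest level with each Abcam lot on day 6, and 3 at the limit on each side. The members, rules and comparisons were chosen with earlier results of these data known. Changes from day 0 were not tested because day 0 chose the windows. GC content and genes per chromosome came from GRCm38.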

Additional observations from a re-analysis of the deposited data

Results flagged for a closer look

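Windows of the X chromosome, which the choice of windows leaves out, met the same limits in 553 of 30776 cases (1.80%). This lies outside the comparisons above and has no control library. The median level over all X windows was 0.400, 0.375 and 0.320 on day 0 with the Upstate-type antibody, lot 58206 and lot 638466, and 74.1% of the 553 windows were at 3 or more times the median in all later Upstate-type libraries.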

How the results depend on the processing

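Of 171 values recomputed under other settings, 138 stayed within 1.5 times the main value. In 44 of 45 comparisons more Upstate-only windows were called lower than higher, the exception being day 6 against day 4 with an Upstate-type limit of 2 times (2.63% each way). The share at 3 or more times the median ranged from 69.6 to 99.9% on day 2, 59.5 to 98.9% on day 4 and 62.5 to 97.7% on day 6. The alternatives of leaving out chromosome 8, medians within each chromosome and 30 tags in every Upstate-type library, were chosen after seeing the data.

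The number of windows was 43627 with windows of 2 kb, 13018 with 10 kb, 37148 and 11743 with Upstate-type limits of 2 and 5 times, and 3013 with an Abcam limit of 1 time. The share at 3 times the median with lot 58206 on day 6 was 0.133% (2 kb), 0.131% (10 kb), 0.122% (tags placed by interval start), 0.0426% (Upstate-type limit 5), 0.0332% (Abcam limit 1), 0.113% (medians within each chromosome) and 4.07% with lot 638466 alone in the rule. The shares called by Fisher's exact test moved as follows. With 2-kb windows, 1.99% were lower on day 4 than on day 2, 1.58% lower and 0.931% higher on day 6 than on day 4, and 5.72% lower and 0.931% higher on day 6 than on day 2. With 10-kb windows, 3.35% were higher on day 6 than on day 4. With an Upstate-type limit of 5 times, higher shares were 0.221% (day 4 against 2), 1.12% (6 against 4) and 1.08% (6 against 2), and with an Abcam limit of 1 time 1.33% (6 against 4) and 1.19% (6 against 2). Scaled to the low windows, 16.5% were lower and 0.0618% higher on day 4 than on day 2, and 30.1% and 0.529% on day 6 than on day 2. At a Benjamini-Hochberg adjusted *P* below 0.05, 0.609% and 0.0441% were lower and higher on day 4 than on day 2, 0.768% and 0.340% on day 6 than on day 4, and 7.26% and 0.719% on day 6 than on day 2. The cause of these shifts was not tested, except that smaller windows hold fewer tags. The same shares over all windows were not recomputed under these settings.

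With 1 library per antibody and time point, leaving out a library ends the comparison, and differences between cultures cannot be told apart from differences between time points. No paired analysis was possible because each group is a single library. Windows of 30 tags carry wide counting intervals, and changes under 1.5-fold were not called at any depth.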
